A study of Homo sapiens with 8 samples.

Results

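The comparison described here set NCCIT cells depleted of TET3 (siTET3) against NCCIT cells given a non-targeting siRNA (siNTC). NCCIT is an established human embryonic carcinoma line, a germ cell tumour line with a transcriptome close to that of pluripotent stem cells. The members were chosen by label: the 2 siTET3 arrays and the 2 siNTC arrays, 4 of the 8 arrays of a series that also holds 2 siTET1 and 2 siTET2 arrays. All 4 groups were the same untreated, undifferentiated line, transfected with a pool of siRNAs against TET1, TET2 or TET3, or with the non-targeting pool, and read on Affymetrix Human Gene 1.0 ST arrays. Each target had 1 siRNA pool, so an effect of the pool on other transcripts cannot be told apart from an effect of losing TET3. The labels do not say whether the 2 arrays of a group came from separate cultures, so the p-values measure the spread between arrays only.

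TET enzymes oxidize the methyl group of 5-methylcytosine to 5-hydroxymethylcytosine and further products, which base excision repair can replace with plain cytosine. TET3 is the family member best known for its work in the egg, the early embryo and neural tissue, whereas TET1 is the abundant form of pluripotent cells. Promoters, enhancers and gene bodies all carry the oxidized base, and loss of a TET enzyme can be followed by higher or lower transcription.

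The values were log2 intensities of 18417 genes, each read from its brightest cluster of probes, and ranged from 3.13 to 14.75. A log2 change of 1 is a doubling of signal. Olfactory receptor genes, which this line has no known use for, set a background level of 5.23, the 95th percentile of 361 such genes. A gene was called when its adjusted p in the limma fit was below 0.05. By that rule 2533 genes were higher in siTET3 (13.8%) and 4113 lower (22.3%), 6646 in all (36.1%), and the median change of all genes was -0.02. Quantile normalization moved this split to 3481 higher and 3412 lower, that is from 61.9% to 49.5% lower among calls, so directions of weak changes depended on scaling. A fit of only the 12682 genes with a mean above background called 6420, so the shares of all genes are low marks for lists of expressed genes. Most calls were small: 5557 of the 6646 (83.6%) were below 1.5-fold, 322 genes were higher and 767 lower by at least 1.5-fold, and the account below is mainly of functions in that quieter range. Changes also ran along chromosomes. Chromosome 15 had a median of -0.33 over its 421 genes above background, chromosome 2 of -0.14 and chromosome 7 of 0.07, and 2301 genes lay where the 24 nearest genes above background had a median beyond 0.2 in either direction. That neighbour median is given beside the genes it touches as the level of the neighbours, and its part in a gene's change was not tested. The number of arrays limits the precision of every value, and ± is the standard error of a log2 change between 2 and 2 arrays.

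TET3 itself read 7.74 and 7.30 in siNTC and 6.23 and 6.66 in siTET3, so the siTET3 arrays lay below both controls. The change was -1.08 ± 0.15 (adjusted p = 7.52e-05), leaving 47.4% of the siNTC signal. The other family members moved apart. TET1 read 10.62 and 10.53 in siNTC and 10.93 and 11.05 in siTET3, a change of 0.42 ± 0.048 (adjusted p = 1.69e-05), and TET2 read 7.71 and 7.91 in siNTC and 7.22 and 7.48 in siTET3, a change of -0.47 ± 0.095 (adjusted p = 0.00177). Of the repair enzymes that act on oxidized or deaminated cytosine, MBD4 was higher at 0.26 ± 0.064, from 9.13 and 9.09 in siNTC and 9.40 and 9.33 in siTET3, and the glycosylase NEIL3 was higher by 0.36. UNG, which removes uracil from DNA, changed by -0.30 and XRCC1, the scaffold of single-strand break repair, by -0.31, both lower calls, whereas TDG, the glycosylase for the further TET products, was not called (-0.03). OGT, a glycosyltransferase that binds TET proteins, was lower (-0.38).

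Most measured markers of the line were above background. Of 20 embryonic carcinoma markers listed, 17 were measured, and 16 of these were above background in siNTC or siTET3. Calls were 4 higher and 6 lower, 58.8% of the 17, beside 36.1% of all genes. SOX2, a core pluripotency factor, read 12.67 and 12.68 in siNTC and 12.48 and 12.48 in siTET3, a change of -0.19 in which the 2 groups did not overlap. Among the lower calls, OTX2, a homeodomain factor of the primed pluripotent state, read 11.09 and 11.16 in siNTC and 10.46 and 10.58 in siTET3 (-0.60 ± 0.045, adjusted p = 4.02e-07), and PODXL, the sialomucin that carries stem cell surface epitopes, read 12.36 and 12.32 in siNTC and 11.72 and 11.79 in siTET3 (-0.58 ± 0.035). The other lower calls were SALL4 (-0.24), TERF1 (-0.30) and ZFP42 (-0.30). The higher calls were L1TD1, an RNA-binding protein of pluripotent cells, at 0.53 ± 0.034 from 11.38 and 11.34 in siNTC and 11.88 and 11.91 in siTET3, with PRDM14 (0.30), CD24 (0.25) and DPPA4 (0.19). LIN28A (-0.02), LIN28B (-0.08) and DNMT3B (-0.06) were not called.

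Markers of other cell types were mostly dark, with 10 of 28 above background in either group, 1 called higher (3 without siTET3 replicate 2) and 4 lower (2 without siNTC replicate 1 or siTET3 replicate 1). None of the 5 blood markers reached background, their summed linear intensity being 96.8 to 99.6 in siNTC and 100.2 to 110.5 in siTET3. The fibroblast sum was 1572 to 1639 in siNTC and 1198 to 1227 in siTET3, with THY1 lower at -0.51 (neighbours -0.41) and LUM near background. The endothelial sum was 153.8 to 167.1 against 123.6 to 129.7, where KDR was the member called (6.38 and 6.29 in siNTC and 5.54 and 5.68 in siTET3), and the yolk sac and liver sum was 133.5 to 142.9 against 132.7 to 141.7. The neuronal sum was 2202 to 2268 in siNTC and 3220 to 3250 in siTET3, and its member called higher was STMN2, a microtubule regulator of growing neurites, which read 10.42 and 10.46 in siNTC and 11.25 and 11.24 in siTET3 (0.81 ± 0.035). In an RNA sample a smaller share of such cells and less of the transcript per cell cannot be told apart.

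**Figure D1:**
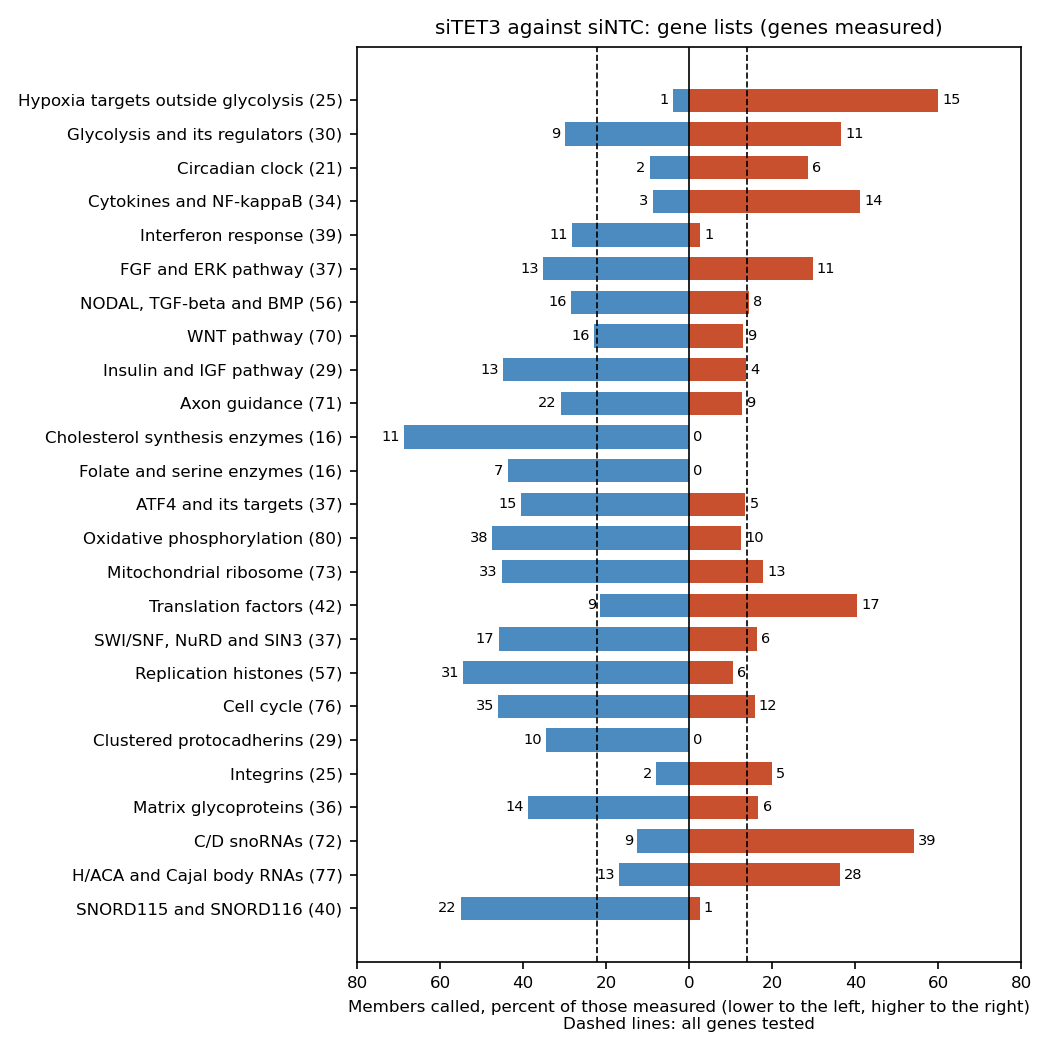
Share of the measured members of 25 gene lists that were called lower (left) or higher (right) in siTET3 against siNTC, in percent, with the number called at the bar ends, the number measured in parentheses and dashed lines at the share of all genes tested (22.3% lower and 13.8% higher). Hypoxia targets (15 of 25 higher), C/D snoRNAs (39 of 72 higher) and cholesterol enzymes (11 of 16 lower) lie farthest to either side.

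Below the 10 largest changes in each direction, the next 20 higher genes included 5 of the cell surface and matrix, picked out after their values were seen. MMP16, a membrane-bound metalloprotease, read 5.90 and 6.30 in siNTC and 7.64 and 7.32 in siTET3 (1.38 ± 0.13, adjusted p = 2.48e-06). ITGA5, the alpha chain of the main fibronectin receptor, read 6.24 and 6.43 in siNTC and 7.53 and 7.62 in siTET3 (1.24 ± 0.098), and ITGB8, an integrin chain that binds latent TGF-beta, read 6.48 and 6.49 in siNTC and 7.76 and 7.84 in siTET3 (1.31 ± 0.076, neighbours 0.27). The ranks held only genes whose siTET3 and siNTC arrays did not overlap, so non-overlap is no added support for these 3 genes. LOX, which crosslinks collagen and elastin, and the secreted protease ADAMTS20 were higher by 1.26 and 1.37. Among the others were MIGA1, a mitochondrial fusion protein, at 8.30 and 8.26 in siNTC and 9.64 and 9.67 in siTET3 (1.38 ± 0.049), CCND1, the D-type cyclin of G1, at 8.21 and 8.11 in siNTC and 9.35 and 9.55 in siTET3 (1.29 ± 0.071), TMEM106C (1.43), OPN3 (1.35), the filopodial GTPase RHOF (1.31), the protease inhibitor SPINK1 (1.26), the ubiquitin ligase adaptor KBTBD7 (1.26), and OC90 (1.32), LRRC39 (1.29), RBAK (1.28) and GPR50 (1.25). The other 4 of the 20 were BHLHE40 and 3 snoRNAs, SNORD45B, SNORD45C and SNORD54, described further on.

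The next 20 lower genes included the transcription factors ETS1, MYB, NFIB and CDX4. ETS1 read 7.62 and 7.64 in siNTC and 5.87 and 5.91 in siTET3 (-1.74 ± 0.094), and MYB, the proto-oncogene of progenitor cells, read 8.91 and 8.99 in siNTC and 7.21 and 7.25 in siTET3 (-1.73 ± 0.071, adjusted p = 4.02e-09). NFIB read 6.40 and 6.36 in siNTC and 4.85 and 4.48 in siTET3, where both siTET3 arrays were below background, so that it was at least 2.22-fold lower. Its relative NFIA, one of the 10 largest changes, read 8.68 and 8.57 in siNTC and 6.19 and 6.23 in siTET3, whereas NFIC (-0.16) and NFIX (0.15) of the same family were not called. CDX4, a caudal homeobox factor, was at least 1.51-fold lower. DUSP6, the phosphatase that turns off ERK, read 8.14 and 8.16 in siNTC and 6.25 and 6.16 in siTET3 (-1.95 ± 0.089, adjusted p = 9.06e-09). LYVE1, a hyaluronan receptor, read 7.41 and 7.24 in siNTC and 4.96 and 5.18 in siTET3 and was at least 4.28-fold lower. The zinc finger gene ZNF729, the synaptic adhesion gene LRRTM3 and the sulfotransferase SULT1C4 were at least 4.25-fold, 2.53-fold and 2.12-fold lower. PLCL2 read 7.19 and 7.10 in siNTC and 5.45 and 5.65 in siTET3 (-1.60 ± 0.11) and the clustered protocadherin PCDHB3 8.70 and 8.71 in siNTC and 6.73 and 7.10 in siTET3 (-1.79 ± 0.1). The remaining members were the granule protein SCG3 (-2.24, neighbours -0.25), TNMD (-1.98), STAG3L4 (-1.93, neighbours -0.88), the selenium carrier SELENOP (-1.80), the interferon-inducible TRIM22 (-1.77), PLXDC2 (-1.76), the recycling GTPase RAB25 (-1.76), the mitochondrial import chaperone TIMM8B (-1.58, neighbours -0.43) and the actin-binding SYNPO2 (-1.55).

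NODAL and other TGF-beta family ligands signal through paired serine/threonine kinase receptors to SMAD proteins, and in pluripotent cells they help hold the undifferentiated state. Of 56 genes of this pathway, 8 were called higher (14.3%) and 16 lower (28.6%), beside 13.8% and 22.3% of all genes. Outside shifted neighbourhoods 8 were higher and 10 lower of 45, so the list then had no clear excess of lower calls. The receptors moved the most as a group, with 6 of 11 lower and 1 higher. TGFBR2, the TGF-beta type II receptor, read 7.57 and 7.44 in siNTC and 6.47 and 6.74 in siTET3 (-0.90 ± 0.098, adjusted p = 1.07e-05), with neighbours at 0.13. ACVR1 (-0.79), ACVR1C (-0.75), ACVR2A (-0.65) and BMPR2 (-0.36) were lower too, but these 4 genes sit on chromosome 2 with neighbour medians of -0.46, -0.46, -0.28 and -0.32. Outside such neighbourhoods the receptors counted 1 higher and 2 lower, the higher one being TGFBR1 (0.22, lost without siNTC replicate 2 or siTET3 replicate 2). ACVR2B (-0.42) was a lower call that was lost without siNTC replicate 1 or siTET3 replicate 1. Among the signal carriers SMAD3, the activated partner of NODAL and TGF-beta receptors, read 9.10 and 9.21 in siNTC and 8.20 and 8.25 in siTET3 (-0.93 ± 0.061, on chromosome 15, neighbours -0.33). SMAD4, shared by all branches, was lower by -0.29 and SMAD5 higher at 0.39, whereas SMAD2 was not called (0.08). Of the 12 secreted and membrane regulators, 4 were lower, 0 higher and 8 not called. FST, which traps activins, read 8.12 and 8.21 in siNTC and 7.35 and 7.45 in siTET3 (-0.77 ± 0.082), the BMP inhibitor GREM1 was lower at -0.70 (neighbours -0.37), and LTBP1, which stores latent TGF-beta, was lower at -0.35. NODAL (0.27), LEFTY1 (0.02) and LEFTY2 (0.09) were not called, and of the ligands GDF15 was higher at 0.62 and BMP7 lower at -0.43. The BMP targets ID1 (0.34) and ID2 (0.20) were higher and CCN2 was lower (-0.58).

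Secreted ligands such as FGF2 signal through receptor tyrosine kinases to ERK, which switches on its own inhibitors. FGF12 and FGF13, also in the list, are related proteins that stay inside the cell. Of 37 genes of this pathway, 11 were higher and 13 lower, beside 13.8% and 22.3% of all genes. The feedback inhibitors were split. DUSP6 was lower as given above, SPRED2 was lower by -0.52 ± 0.047 and SPRED1 by -0.38 (neighbours -0.38), but IL17RD, a membrane inhibitor of FGF signals, read 8.43 and 8.42 in siNTC and 9.20 and 9.23 in siTET3 (0.79 ± 0.052), the phosphatase DUSP5 read 7.18 and 7.03 in siNTC and 7.67 and 7.63 in siTET3 (0.54 ± 0.087) and SPRY2 was higher by 0.25. The ERK-driven transcription factors were split as well, ETV1 being higher (0.39) and ETV4 lower (-0.25). FGF2, the ligand used to keep pluripotent cells in culture, read 9.76 and 9.66 in siNTC and 9.44 and 9.42 in siTET3 (-0.28 ± 0.052), FGF4 (0.26) and FGF19 (0.39, lost without siNTC replicate 1 or siTET3 replicate 2) were higher, and FGF12 (-0.79), FGF13 (-0.56) and the receptor FGFR3 (-0.47) lower.

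WNT ligands bind FZD receptors and LRP co-receptors and stabilize beta-catenin, which works with TCF factors. The pathway as a whole counted 9 higher (4 without siNTC replicate 2) and 16 lower of 70 genes, close to the shares of all genes, but its intracellular components counted 2 higher and 7 lower of 15. TCF7L1, the repressor form of TCF in pluripotent cells, read 10.30 and 10.31 in siNTC and 9.35 and 9.39 in siTET3 (-0.93 ± 0.046, adjusted p = 1.5e-08) and TCF7L2 was lower by -0.31. The 3 Dishevelled genes, which carry the signal from the receptors, were lower by like amounts: DVL1 (-0.46), DVL2 (-0.44) and DVL3 (-0.46). AXIN1 (-0.42) and GSK3A (-0.30) of the beta-catenin destruction machinery were lower, whereas CTNNB1, beta-catenin itself, read 12.40 and 12.42 in siNTC and 12.78 and 12.83 in siTET3 (0.39 ± 0.033) and APC was higher at 0.26. Receptors went both ways, with FZD2 (-0.58), FZD8 (-0.61) and FZD5 (-0.72, neighbours -0.42) lower and FZD3 (0.46) higher. The antagonist FRZB read 7.17 and 7.32 in siNTC and 5.65 and 5.97 in siTET3 (-1.44 ± 0.11, neighbours -0.26), and SHISA3, which holds FZD receptors inside the cell, read 9.85 and 9.93 in siNTC and 6.82 and 6.53 in siTET3. SFRP2 was higher (0.46).

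Insulin and IGF receptors act through PI3 kinase, AKT and mTOR on growth. Of 29 genes, 4 were higher and 13 lower, a larger share of lower calls than over all genes. IGF1R, the IGF receptor, read 10.75 and 10.73 in siNTC and 10.24 and 10.29 in siTET3 (-0.48 ± 0.043, on chromosome 15, neighbours -0.26), and INSR, the insulin receptor, read 7.45 and 7.44 in siNTC and 7.16 and 7.22 in siTET3 (-0.25, a call lost without siNTC replicate 1 or 2 or siTET3 replicate 1 and after quantile normalization). PIK3R1, the regulatory subunit of PI3 kinase, read 9.68 and 9.69 in siNTC and 9.02 and 9.02 in siTET3 (-0.66 ± 0.048). AKT2 (-0.38), FOXO1 (-0.35), TSC2 (-0.48), MTOR (-0.30) and the mTOR inhibitor DEPTOR (-0.53) were lower. The higher members were IGFBP7 (0.50), PIK3CB (0.35), RHEB (0.33) and RICTOR (0.35). So activators and inhibitors of the pathway were found on both sides.

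**Figure D2:**
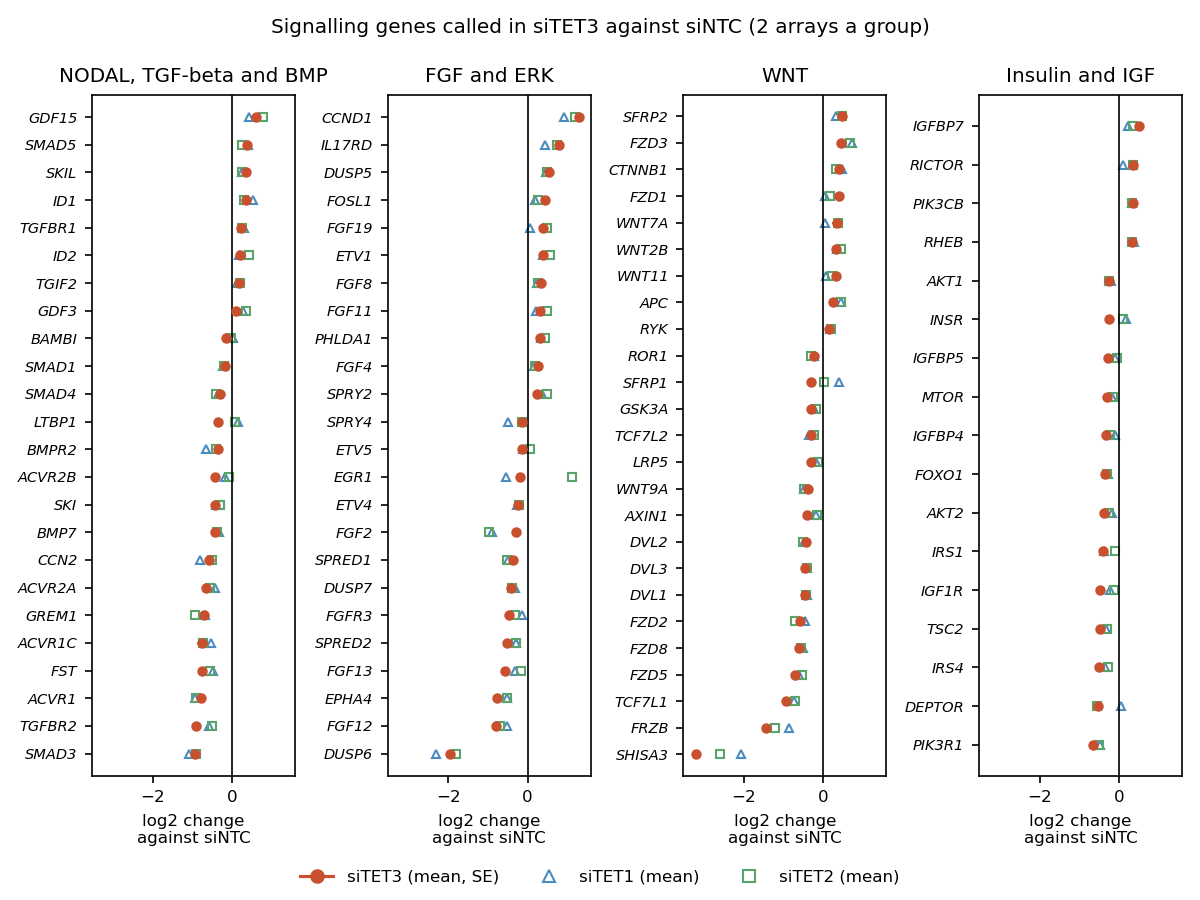
Log2 change against siNTC of every pathway gene called in siTET3, in 4 panels, with filled circles and bars for siTET3 (mean of 2 arrays and SE, the bars mostly shorter than the symbols) and open triangles and squares for siTET1 and siTET2, all against the same 2 siNTC arrays. SHISA3 at -3.22 and DUSP6 at -1.95 lie farthest to the left, CCND1 at 1.29 farthest to the right, and FGF2, INSR and LTBP1 are members whose siTET3 points lie apart from both others.

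Axon guidance genes steer growing neurites and also position cells in embryos. Of 71 genes, 9 were higher (12.7%) and 22 lower (31.0%), beside 13.8% and 22.3% of all genes. The repellent receptor EPHA3 read 6.96 and 6.84 in siNTC and 5.38 and 5.78 in siTET3 (-1.32 ± 0.13, adjusted p = 5.59e-06), and EPHA7 (-0.90), EPHA4 (-0.78), EFNA5 (-0.67), UNC5D (-0.64) and PLXNC1 (-0.59) were lower. EFNA3 (0.96), SEMA5A (0.96), SEMA4A (0.89) and EFNA4 (0.51) were higher.

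Hypoxia-inducible factors switch on genes for oxygen supply, collagen processing and mitochondrial removal when oxygen or the dioxygenases that read it fall short. Of 25 targets outside glycolysis, 15 were higher and 1 lower (2 without siNTC replicate 1, 3 without siTET3 replicate 2), and their median change was 0.29 against -0.02 for all genes. Higher calls made up 13.8% of all genes and lower calls 22.3%. BHLHE40, a repressor that also belongs to the clock, read 5.99 and 5.81 in siNTC and 7.31 and 7.17 in siTET3 (1.34 ± 0.093, adjusted p = 2.27e-07). BNIP3, a receptor for removing mitochondria, read 11.48 and 11.37 in siNTC and 12.29 and 12.34 in siTET3 (0.88 ± 0.038), and its relative BNIP3L was higher by 0.52. DDIT4, an inhibitor of mTOR, read 7.15 and 6.94 in siNTC and 8.04 and 8.19 in siTET3 (1.06 ± 0.081). In BNIP3 and DDIT4 both siTET3 arrays were above both siNTC arrays, which for BHLHE40 was a condition of its rank. These list members were named for large changes, so the non-overlap is no added support. The collagen prolyl hydroxylases P4HA2 (6.69 and 6.80 in siNTC and 7.54 and 7.71 in siTET3) and P4HA1 (0.45) and the collagen crosslinker LOX (5.47 and 5.38 in siNTC and 6.69 and 6.68 in siTET3) rose together with the histone demethylase KDM3A (0.48), VEGFA (0.39), STC1 (0.65 ± 0.057) and the oxidase ERO1A (0.26). The exception was ADM, the vasodilator peptide adrenomedullin, which read 10.53 and 10.46 in siNTC and 9.57 and 9.68 in siTET3 (-0.87 ± 0.049). NDRG1 (0.17), ANKRD37 (-0.05) and EGLN3 (0.12), standard targets of the same factors, were not called. Of the regulators, HIF1A (0.22) and VHL (0.35) were higher. The same siNTC arrays gave siTET1 and siTET2 changes of 0.87 and 2.35 for BHLHE40, 0.88 and 2.43 for LOX, 1.15 and 2.01 for DDIT4 and 0.18 and 1.06 for VEGFA, and the list medians were 0.24 in siTET1 and 0.60 in siTET2. Against the mean of the other depletions, a contrast that does not use siNTC, 11 of the 25 were lower and 0 higher in siTET3 (4 to 12 lower with 1 array left out, fewest without siTET3 replicate 1).

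Glycolysis genes were mixed, with 11 higher and 9 lower of 30, beside 13.8% and 22.3% of all genes. The regulators PFKFB3 (7.95 and 7.95 in siNTC and 9.04 and 9.12 in siTET3) and PFKFB4 (1.04), which make the activator of phosphofructokinase, rose with the glucose transporters SLC2A1 (0.36) and SLC2A3 (0.35), HK2 (0.40) and ALDOC (0.52). PFKM (-0.51), TPI1 (-0.34) and PKM (-0.24) were lower, and LDHA (0.03) and PDK1 (-0.04) were not called. The core letters bound by hypoxia-inducible factors, ACGTG on either strand, were found in 10 of the 18 hypoxia targets with a promoter in the RefSeq table (55.6%) and in 8 of 17 glycolytic genes (47.1%), against 21.6% of all 27305 promoters of 300 bases. A match is a description of the letters and not a site. The 250 bases before the start of the targets with the largest rises are shown from RefSeq, GRCh38.p14, 5′ to 3′ on the gene's strand, with matches to ACGTG or its complement in capitals.
BHLHE40 (chr3:4979187-4979436, + strand): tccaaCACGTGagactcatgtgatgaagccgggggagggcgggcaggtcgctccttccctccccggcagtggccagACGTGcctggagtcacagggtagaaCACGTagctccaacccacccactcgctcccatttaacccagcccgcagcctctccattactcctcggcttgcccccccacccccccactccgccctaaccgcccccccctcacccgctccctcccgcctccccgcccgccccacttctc
LOX (chr5:122078260-122078509, - strand): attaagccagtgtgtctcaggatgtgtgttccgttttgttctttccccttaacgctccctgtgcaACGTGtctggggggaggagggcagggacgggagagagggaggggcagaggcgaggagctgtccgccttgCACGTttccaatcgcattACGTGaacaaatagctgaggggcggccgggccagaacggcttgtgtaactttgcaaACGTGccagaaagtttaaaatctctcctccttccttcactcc

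BHLHE40 and its partner BHLHE41 also damp the circadian clock, in which CLOCK and BMAL1 drive the PER and CRY repressors. Of 21 clock genes, 6 were higher and 2 lower, and the lower count was 1 without siNTC replicate 1 or 2 and 0 without siTET3 replicate 1. All genes together had 13.8% higher and 22.3% lower. BHLHE41 read 5.98 and 6.09 in siNTC and 7.20 and 7.12 in siTET3 (1.12 ± 0.083). CLOCK read 8.70 and 8.61 in siNTC and 9.36 and 9.27 in siTET3 (0.66 ± 0.057). PER3 was higher (0.40) and the 2 lower calls were PER2 (-0.31) and CRY2 (-0.32), while BMAL1 (0.15) and PER1 (0.01) were not called. The CLOCK change was 0.23 and 0.24 in siTET1 and siTET2, and siTET3 exceeded their mean by 0.43 ± 0.05 (adjusted p = 0.000134). The E-box letters CACGTG, which contain ACGTG, were in 5 of 20 clock gene promoters (25%) and in 7.43% of all promoters.

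**Figure D3:**
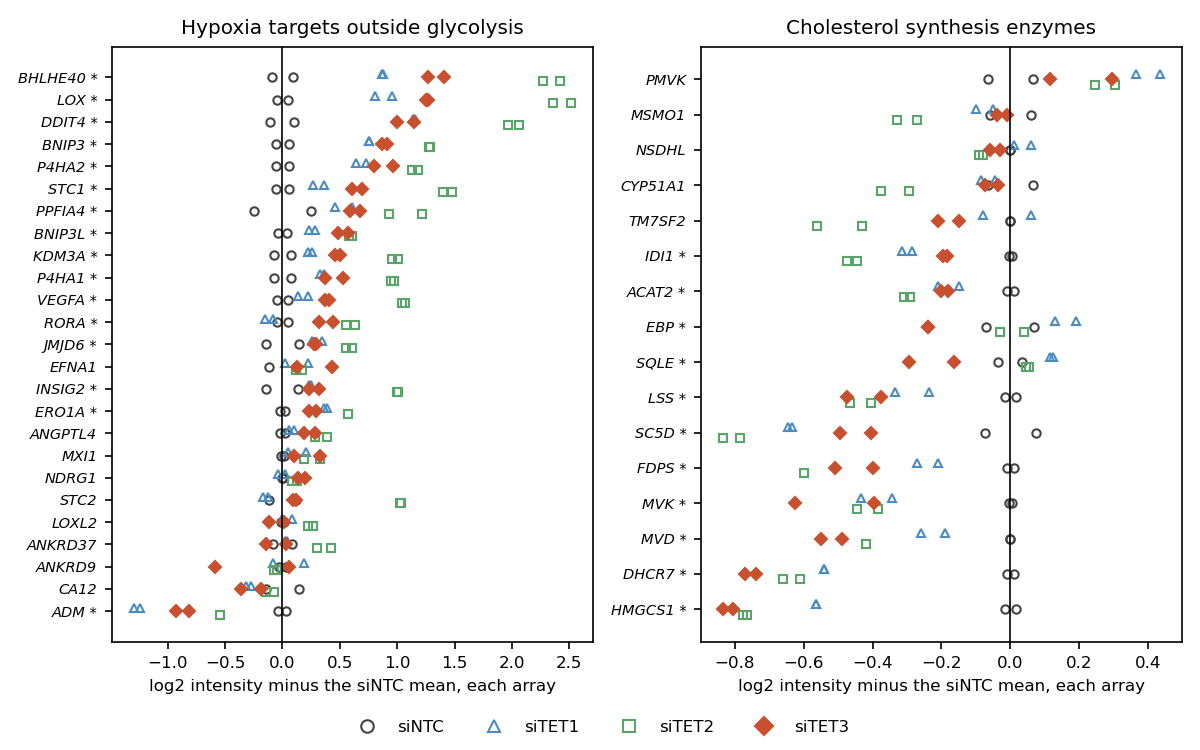
Log2 intensity of each array minus the siNTC mean of the gene, for 25 hypoxia targets (left) and 16 cholesterol synthesis enzymes (right), with 2 points a group (points of the groups are set slightly apart in height) and an asterisk at genes called in siTET3 against siNTC. The siTET3 diamonds lie right of the siNTC circles for most hypoxia targets and left of them for most enzymes, with ADM as the exception on the left.

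Cholesterol synthesis enzymes moved the other way, 11 of 16 lower and 0 higher (1 without siTET3 replicate 1), with a median of -0.24. HMGCS1, at the entry of the pathway, read 12.14 and 12.11 in siNTC and 11.32 and 11.29 in siTET3 (-0.82 ± 0.033), and DHCR7, at its last step, read 11.21 and 11.23 in siNTC and 10.48 and 10.45 in siTET3 (-0.76 ± 0.037). Between them MVD (8.50 and 8.50 in siNTC and 7.95 and 8.01 in siTET3), FDPS (10.06 and 10.04 in siNTC and 9.54 and 9.65 in siTET3), MVK (-0.51), LSS (-0.43) and SC5D (-0.45, neighbours -0.31) were lower. SQLE (11.03 and 10.96 in siNTC and 10.83 and 10.70 in siTET3) and EBP (-0.24) were lower in siTET3 while their siTET1 and siTET2 changes were 0.12 and 0.05 and 0.16 and 0.00, and siTET3 was below the mean of the other depletions by -0.32 and -0.32 on the log2 scale (adjusted p = 0.000171 and 0.00058). Over the 16 enzymes that contrast counted 4 higher and 5 lower, and the list medians against siNTC were -0.21 in siTET1 and -0.42 in siTET2. CYP51A1 (-0.05), MSMO1 (-0.03) and NSDHL (-0.04) were not called. Against siNTC 22.3% of all genes were lower and 13.8% higher. SREBF2, the factor that switches these enzymes on, read 9.48 and 9.64 in siNTC and 9.12 and 9.29 in siTET3 (-0.35), its escort SCAP was lower (-0.29, lost without siNTC replicate 1) and INSIG2, which holds it back, higher (0.28, lost without siNTC replicate 2 or siTET3 replicate 2). The cholesterol exporter ABCA1 read 6.28 and 6.42 in siNTC and 7.95 and 7.95 in siTET3 (1.60 ± 0.073), and the carrier APOE read 9.21 and 9.27 in siNTC and 8.35 and 8.46 in siTET3 (-0.83 ± 0.058), so efflux genes went both ways. Of the fatty acid enzymes, FADS2 was lower (11.48 and 11.51 in siNTC and 10.92 and 10.99 in siTET3) with FADS1 (-0.41), FASN (-0.36) and ELOVL6 (-0.36), ELOVL4 (0.68) and ACSL4 (0.62) were higher, and SCD was not called (-0.02), 5 higher and 6 lower of 21 in all. No cholesterol enzyme promoter held the SREBP letters TCACNCCAC (0 of 14, against 1.15% of all promoters).

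Folate and serine enzymes supply methyl groups and nucleotide precursors. None of the 16 was higher (1 without siNTC replicate 1) and 7 were lower. By comparison 13.8% of all genes were higher and 22.3% lower. FOLR1, the folate receptor, read 7.02 and 6.81 in siNTC and 5.88 and 5.98 in siTET3 (-0.99 ± 0.099), TYMS, which makes thymidylate, read 10.43 and 10.44 in siNTC and 9.85 and 9.71 in siTET3 (-0.66 ± 0.05), and PSAT1, of serine synthesis, read 11.27 and 11.23 in siNTC and 10.67 and 10.65 in siTET3 (-0.59). The folate carrier SLC19A1 (-0.48), AMT (-0.72), ALDH1L2 (-0.31, lost without siNTC replicate 1 or 2 or siTET3 replicate 1) and SHMT2 (-0.24) completed the 7, whereas PHGDH (0.02) and MTHFD2 (0.11) were not called.

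ATF4 is the transcription factor of amino acid shortage. Of 37 genes, ATF4 itself, its partners and its targets, 5 were higher and 15 lower, beside 13.8% and 22.3% of all genes. CHAC1, which degrades glutathione, read 8.01 and 7.98 in siNTC and 6.82 and 6.61 in siTET3 (-1.28 ± 0.1, on chromosome 15, neighbours -0.38). The glycine transporter SLC6A9 read 7.61 and 7.69 in siNTC and 6.70 and 6.78 in siTET3 (-0.91 ± 0.082), CEBPB, a partner factor, read 8.74 and 8.76 in siNTC and 8.14 and 8.20 in siTET3, and asparagine synthetase ASNS read 9.38 and 9.57 in siNTC and 9.12 and 9.06 in siTET3 (-0.39 ± 0.064). CTH was lower too (-0.57). The factors of the list counted 6 lower of 8 but 2 without siTET3 replicate 1, and DDIT3 (-0.29) lost its call there. ATF4 itself (-0.11) was a lower call lost without siNTC replicate 1 or 2 or siTET3 replicate 1 and after quantile normalization. SLC7A5, the importer of large neutral amino acids, went the other way at 9.13 and 9.04 in siNTC and 9.56 and 9.65 in siTET3 (0.52 ± 0.054). Its siTET1 and siTET2 changes were -0.19 and 0.18, and siTET3 lay 0.53 ± 0.047 above their mean (adjusted p = 1.82e-05). The composite letters TGATGNAA that ATF4 dimers bind were in 6 of 27 promoters of these genes (22.2%) and in 6 of 16 promoters of cytosolic aminoacyl-tRNA synthetases (37.5%), against 3.67% of all promoters. Of the 19 synthetases 2 were higher (1 without siNTC replicate 1, siTET2 replicate 2 or siTET3 replicate 1) and 7 lower (4 and 4 under quantile normalization), among them NARS1 (-0.35) and WARS1 (-0.39). Promoters of 2 lower ATF4 targets are shown with the match in capitals, as above.
CHAC1 (chr15:40953221-40953470, + strand): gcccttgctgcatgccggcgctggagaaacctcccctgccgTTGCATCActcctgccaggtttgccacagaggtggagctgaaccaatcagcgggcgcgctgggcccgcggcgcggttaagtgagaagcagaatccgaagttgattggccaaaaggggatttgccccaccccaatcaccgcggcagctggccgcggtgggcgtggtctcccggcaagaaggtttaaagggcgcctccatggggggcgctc
ASNS (chr7:97872409-97872658, - strand): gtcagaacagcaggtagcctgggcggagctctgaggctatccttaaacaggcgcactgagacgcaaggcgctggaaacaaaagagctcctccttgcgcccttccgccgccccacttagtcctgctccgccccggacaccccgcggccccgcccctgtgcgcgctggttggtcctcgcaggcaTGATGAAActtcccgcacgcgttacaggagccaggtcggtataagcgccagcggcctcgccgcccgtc

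Mitochondrial gene groups leaned lower. Of 80 nuclear-encoded subunits of oxidative phosphorylation, 10 were higher and 38 lower, and of 73 mitochondrial ribosomal proteins, 13 were higher and 33 lower, with medians of -0.14 and -0.11. Among all genes 13.8% were higher and 22.3% lower. Under quantile normalization the list counts became 14 and 29 for the first list and 18 and 22 for the other. COX6B1 read 11.73 and 11.72 in siNTC and 10.93 and 11.05 in siTET3 (-0.73 ± 0.048) and COX8A read 11.90 and 11.92 in siNTC and 11.39 and 11.51 in siTET3 (-0.46 ± 0.041), both subunits of cytochrome c oxidase. Translation factors leaned the other way, with 17 higher and 9 lower of 42 (21 and 4 under quantile normalization). EIF5, which helps set the start codon, was higher by 0.61 ± 0.046 and exceeded the mean of the other depletions by 0.37 ± 0.04. EIF5A2 (0.65), EIF3B (0.52), EIF3K (0.51), EIF3F (0.49) and EIF3M (0.47) were higher, and the cap-binding inhibitor EIF4EBP1 was lower (-0.50). In the unfolded protein response of the endoplasmic reticulum 2 genes were higher and 11 lower of 23 (5 and 8 under quantile normalization, 7 lower without the intensity trend, 1 higher without siNTC replicate 2), including the chaperone HYOU1 (-0.63) and EDEM1 (-0.47), the latter at 0.09 and 0.13 in siTET1 and siTET2.

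Cytokine receptors and the NF-kappaB branch leaned higher, with 14 of 34 higher and 3 lower (1 without siTET3 replicate 2). The shares of all genes were 13.8% higher and 22.3% lower. IL6ST, the shared receptor chain gp130 of the IL6 and LIF family, read 8.90 and 8.90 in siNTC and 9.70 and 9.79 in siTET3 (0.85 ± 0.05, adjusted p = 5.88e-08). IL6R (0.62), LIFR (0.28) and IL13RA1 (0.50) were higher, CXCL12, a chemokine for germ cells and progenitors, read 9.70 and 9.57 in siNTC and 10.11 and 10.09 in siTET3 (0.47 ± 0.049, neighbours 0.21), and CCL2 read 6.67 and 7.04 in siNTC and 7.46 and 7.73 in siTET3 (0.74 ± 0.12). TNFAIP3 (0.57), RELB (0.48) and NFKB2 (0.41), which NF-kappaB itself switches on, were higher. RELA (-0.04), NFKB1 (0.04), IL6 (0.03) and TNF (-0.03) were not called. Of 39 interferon genes, 18 were above background. Interferon genes counted 1 higher (2 without siTET3 replicate 1, 3 without siTET3 replicate 2) and 11 lower of 39, or 7 lower without siNTC replicate 2 or siTET3 replicate 2. The higher one was IFITM1, an antiviral membrane protein also made by pluripotent cells, which read 11.78 and 11.80 in siNTC and 12.88 and 12.88 in siTET3 (1.09 ± 0.028). IFITM3 (-0.43), IFI6 (-0.39, lost without siNTC replicate 1), HERC5 (-0.36) and the RNA sensor RIGI (-0.36) were lower, and ISG15 (0.10) and MX1 (0.04) were not called.

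Developmental factors were mostly not called, and many lay below background. Above it were 14 of 23 neuroectoderm factors, 11 of 16 mesendoderm factors and 6 of 27 HOX genes. Of 23 neuroectoderm factors 0 were higher (1 without siTET3 replicate 2) and 6 lower (26.1%, beside 22.3% of all genes), while mesendoderm factors had 2 higher (1 without siNTC replicate 1 or 2 or siTET3 replicate 1) and 0 lower of 16. Of 27 HOX genes 1 was higher and 2 lower (0 to 4 and 1 to 3 with 1 array left out). LHX2, a homeobox factor of the forebrain and eye, read 6.70 and 6.89 in siNTC and 5.38 and 5.39 in siTET3 (-1.41 ± 0.1, adjusted p = 3.81e-07), ZIC2 read 7.99 and 7.95 in siNTC and 7.24 and 7.11 in siTET3 (-0.80 ± 0.075), and HESX1 was lower by -0.85, with smaller changes in SOX21 (-0.27), ZIC5 (-0.35) and DLX5 (-0.37). The calls of ZIC5 and DLX5 were lost without siNTC replicate 1 or siTET3 replicate 1. PAX6 (-0.05) and SOX1 (0.06) were not called. Of the trophectoderm genes, the trophoblast factor TFAP2A read 12.32 and 12.29 in siNTC and 11.66 and 11.69 in siTET3 (-0.63 ± 0.033), and HAND1 (-0.85) and TEAD4 (-0.54) were lower, 4 of 19 in all (21.1%) with 1 higher, which was lost in 6 of the 8 fits with 1 array left out. The clustered protocadherins, cell surface proteins that give neurons their identity and whose promoter choice depends on DNA methylation, counted 0 higher (3 without siTET3 replicate 1) and 10 lower of 29. PCDHGB4 (-0.83), PCDHB2 (-0.70), PCDHB16 (-0.63), PCDHB10 (-0.60) and PCDHB12 (-0.45) were among them. For PCDHB10 and PCDHB12 the siTET1 and siTET2 changes were -0.03 and -0.20 and -0.03 and -0.12, and siTET3 was below the mean of those groups by -0.48 and -0.38 on the log2 scale, the latter not past the test without siTET3 replicate 1. The beta cluster shares sequence between its members, so single genes of it are uncertain.

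Chromatin remodelling complexes SWI/SNF, NuRD and SIN3 counted 6 higher (3 without siNTC replicate 2 or siTET3 replicate 1) and 17 lower of 37. ARID1A, a DNA-binding subunit of SWI/SNF, read 10.91 and 10.86 in siNTC and 10.70 and 10.74 in siTET3 (-0.17) with 0.12 and 0.18 in siTET1 and siTET2, and siTET3 was -0.32 from their mean (adjusted p = 4.19e-05). ARID1B (-0.51), the neuronal subunit DPF1 (-0.74) and SIN3A (-0.67, on chromosome 15, neighbours -0.33) were lower, and ARID4B (0.69) and BRD7 (0.35) higher. Replication-dependent histone genes, used in S phase, counted 6 higher and 31 lower of 57, or 5 and 21 of 41 outside shifted neighbourhoods. For both lists the shares of all genes were 13.8% higher and 22.3% lower. H2BC21 read 10.22 and 10.21 in siNTC and 9.25 and 9.30 in siTET3 (-0.94) and H2AC4, one of those higher, read 6.95 and 6.69 in siNTC and 8.40 and 8.52 in siTET3 (1.64). H2AC15 read 11.14 and 11.22 in siNTC and 10.31 and 10.27 in siTET3, and its changes of -1.64 and -1.78 in siTET1 and siTET2 were larger than in siTET3. H3C12 was lower (-0.42) but changed by 0.34 and 0.24 in the other depletions, and H4C5 was lower (-0.40) against 0.29 and 0.30. Copies of these genes are nearly alike, so single members are uncertain.

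The cell cycle list counted 12 higher and 35 lower of 76, beside 13.8% and 22.3% of all genes. Outside shifted neighbourhoods it counted 12 and 22 of 63. Cyclins and kinases counted 2 higher and 11 lower of 17. FOXM1, the factor of G2 genes, read 10.96 and 10.98 in siNTC and 10.26 and 10.40 in siTET3 (-0.64 ± 0.048). The phosphatases CDC25B (-0.65) and CDC25C (-0.42), the cyclins CCND2 (-0.77) and CCNA1 (-0.78), CDK4 (-0.45) and the replication genes CDT1 (-0.70), MCM5 (-0.62) and MCM6 (-0.58) were lower. CENPE, a kinetochore motor, was higher at 9.35 and 9.28 in siNTC and 10.00 and 10.00 in siTET3 (0.68 ± 0.046), with RBL1 (0.50), MCM7 (0.36) and CDK1 (0.28). CDKN1A (-0.06) and CCNB1 (-0.07) were not called. CCNB2 read 10.95 and 10.92 in siNTC and 9.94 and 9.87 in siTET3, on chromosome 15 with neighbours at -0.34, and CDKN1B, an inhibitor of G1 kinases, read 8.94 and 9.06 in siNTC and 7.85 and 7.92 in siTET3 (neighbours -0.27). The CHR letters TTTGAA, found in genes of mitosis, were in 11 of 18 mitosis promoters (61.1%) against 15.4% of all.

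Small guide RNAs were called at 66.7% and 53.3% in the C/D and H/ACA lists, beside 36.1% of all genes. Of the 72 and 77 members 64 and 71 were above background, whereas the share of all genes includes many below it. C/D box snoRNAs direct methylation of ribosomal RNA, and outside the SNORD115 and SNORD116 clusters 39 of 72 were higher and 9 lower, with a median of 0.23. H/ACA RNAs direct pseudouridylation, and their list also held Cajal body RNAs, not all of that type. Of its 77 members 28 were higher and 13 lower. SNORD104 read 9.80 and 9.71 in siNTC and 10.79 and 10.83 in siTET3 (1.05 ± 0.041), SNORA14A read 6.22 and 6.31 in siNTC and 7.87 and 8.01 in siTET3 (1.68 ± 0.08), and SNORA21 read 11.17 and 11.06 in siNTC and 11.82 and 11.79 in siTET3 (0.69). SNORD45B (1.40), SNORD54 (1.31), SNORD45C (1.26), SNORA69 (1.03), SNORD36B (0.98) and SNORD59B (0.98) were higher. Several guides of Cajal bodies, where spliceosomal RNAs are modified, went against the rest of their list, with SCARNA12 lower at 12.36 and 12.37 in siNTC and 11.59 and 11.72 in siTET3 (-0.71 ± 0.04), and SCARNA5 (-0.69), SCARNA10 (-0.56), SCARNA4 (-0.56) and SCARNA7 (-0.38) lower too. SNORD60 (-0.66), SNORA80E (-0.82) and SNORA22 (-0.74, neighbours -0.81) were also lower. The SNORD115 and SNORD116 arrays of chromosome 15 counted 1 higher (3 without siNTC replicate 1) and 22 lower of 40, with a median of -0.30. All 40 lie in shifted neighbourhoods of chromosome 15. The 421 genes above background of that chromosome had a median of -0.33, and 271 of them were lower. Over all classes 36.6% of 175 snoRNA genes were higher and 21.7% lower, and of 16900 protein-coding genes 13.7% and 23.3%. Most snoRNAs lie inside introns of host genes, and probe sets this short rest on few probes.

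**Figure D4:**
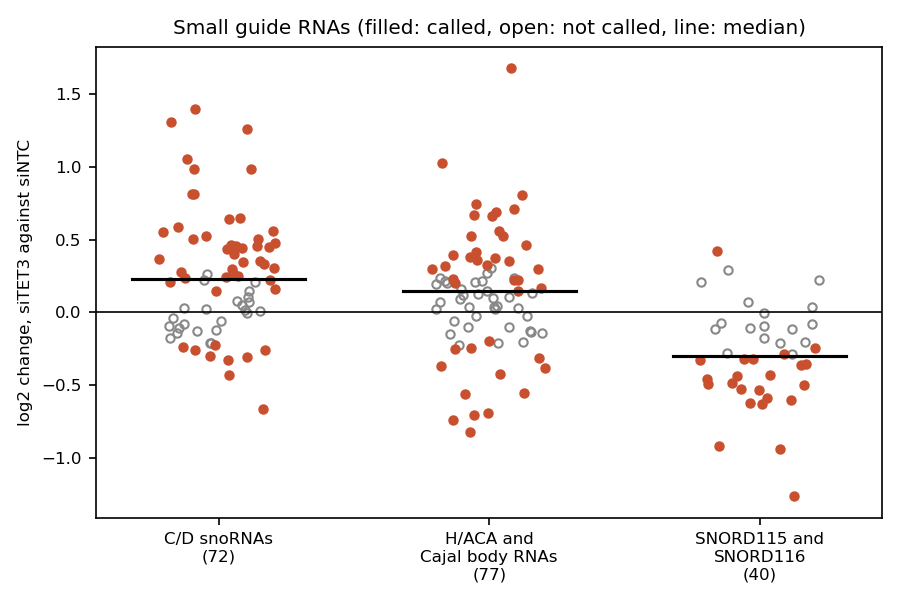
Log2 change in siTET3 against siNTC of each small guide RNA in 3 lists, filled where called and open where not, with a line at the median (0.23, 0.15 and -0.30) and random sideways spread. Most called points of the first list lie above 0 and all but 1 of the SNORD115 and SNORD116 calls lie below it.

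MicroRNA genes were called rarely, 15 higher and 15 lower of 173, beside 13.8% and 22.3% of all genes. Of the 173, 55 were above background. The probes read the precursor gene and do not tell which arm is made. MIR15A read 5.93 and 5.80 in siNTC and 6.85 and 6.71 in siTET3 (0.92 ± 0.13, adjusted p = 7.23e-05), with siTET1 and siTET2 changes of 0.95 and 1.19. MIR193A read 6.17 and 5.84 in siNTC and 6.82 and 6.52 in siTET3 (0.67 ± 0.14), MIR186 read 7.15 and 6.88 in siNTC and 7.43 and 7.82 in siTET3 (0.61 ± 0.12) and MIR221 was lower at 6.89 and 6.68 in siNTC and 5.98 and 6.16 in siTET3 (-0.72 ± 0.1, adjusted p = 0.000125). The calls of these 4 genes held whichever array was left out, as did that of MIR219A2, which was at least 1.2-fold lower. MIR147A (0.62) and MIR23A (at least 1.45-fold higher) were higher calls lost without siNTC replicate 2 or siTET3 replicate 1. The number of higher miRNA genes moved with the arrays used, being 6 without siNTC replicate 2, 9 without siTET3 replicate 1 and 25 without siTET3 replicate 2. Mature sequences from RefSeq, GRCh38.p14, are shown with the seed, bases 2 to 8, in capitals. The seed AGCAGCA of miR-15a is shared by 5 measured genes, of which MIR15A alone was called, and the seed of miR-221 by 2, of which MIR221 alone was called.
hsa-miR-15a-5p (chr13:50049167-50049188, - strand): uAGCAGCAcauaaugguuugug
hsa-miR-193a-3p (chr17:31560050-31560071, + strand): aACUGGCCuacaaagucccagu
hsa-miR-186-3p (chr1:71067642-71067663, - strand): gCCCAAAGgugaauuuuuuggg
hsa-miR-221-3p (chrX:45746180-45746202, - strand): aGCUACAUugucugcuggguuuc

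Adhesion genes moved both ways. Of 25 integrins 5 were higher (3 without siNTC replicate 2, where ITGA2B lost its call) and 2 lower (1 without siNTC replicate 2), with ITGA5 and ITGB8 as above, ITGA2 (0.52) and ITGA2B (0.37) higher and ITGB1, the common beta chain, lower (-0.22, lost without siNTC replicate 2 or siTET3 replicate 2). LAMA2, a laminin chain of muscle and nerve basement membrane, read 8.67 and 8.60 in siNTC and 7.17 and 7.36 in siTET3 (-1.37 ± 0.077), LAMC1 was lower (-0.39) and LAMA1, the chain of the early embryo, higher (0.34). Matrix glycoproteins and their enzymes counted 6 higher and 14 lower of 36, or 6 and 9 outside shifted neighbourhoods. THBS1 (-1.27) and FN1 (-0.72) were lower with neighbours at -0.37 and -0.32. TIMP3, an inhibitor of metalloproteases, read 6.19 and 5.80 in siNTC and 6.86 and 7.11 in siTET3 (0.99 ± 0.14), whereas TIMP1 (-0.51) and TIMP2 (-0.46) were lower. Of 62 cadherins and epithelial junction genes 5 were higher and 13 lower, no more than the shares of all genes (13.8% and 22.3%). EPCAM, a surface protein of epithelial and pluripotent cells, read 9.81 and 9.86 in siNTC and 8.89 and 8.93 in siTET3 (-0.92 ± 0.057), and CDH6 (-0.83), CLDN7 (-0.72), DSP (-0.67) and CDH2 (-0.53) were lower. CDH11 (0.62), CLDN1 (0.55) and CLDN11 (0.47) were higher, and CDH1, the epithelial cadherin, was not called (-0.09).

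Because all depletions share the siNTC arrays, siTET3 was also set against the mean of siTET1 and siTET2, which leaves siNTC out. In that contrast 920 genes were higher in siTET3 (5%) and 1775 lower (9.64%), 8 and 53 of them by at least 1.5-fold, and 38 of these 61 were also called the same way against siNTC. The total of 2695 fell to 1471 without siTET3 replicate 1, to 1765 without siTET2 replicate 1 and to 1678 without siTET2 replicate 2. Some of the largest differences came from genes that changed more in the other groups. FGF2 read 8.78 and 8.85 in siTET1 and 8.74 and 8.74 in siTET2 against 9.44 and 9.42 in siTET3, a difference of 0.66 ± 0.045 (adjusted p = 3.12e-06). CRIPTO, the NODAL co-receptor, read 12.19 and 12.28 in siTET1 and 12.42 and 12.45 in siTET2 but 13.09 and 13.00 in siNTC and 13.05 and 13.06 in siTET3, and POP4, COX8A and H2AC15 were higher in siTET3 by 0.62, 0.58 and 0.82. GREB1L read 7.70 and 7.62 in siTET1 and 6.94 and 7.11 in siTET2 and 5.52 and 5.50 in siNTC and 6.27 and 6.28 in siTET3, a difference of -1.07 ± 0.078.

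MBNL3, KIF27, FREM2, SATB1 and ECI2 changed more against siNTC in siTET3 than in either other depletion, and for KIF27, FREM2 and SATB1 the siTET1 and siTET2 changes were not called. MBNL3, an RNA splicing regulator, read 9.14 and 9.26 in siNTC and 9.78 and 9.93 in siTET3 and 9.26 and 9.29 in siTET1 and 8.83 and 8.91 in siTET2, a difference of 0.79 ± 0.053 (adjusted p = 2.85e-06). KIF27, a kinesin linked to cilia, read 6.60 and 6.51 in siNTC and 7.08 and 7.19 in siTET3 and 6.50 and 6.64 in siTET1 and 6.57 and 6.50 in siTET2 (0.58 ± 0.079). FREM2, a basement membrane protein, read 6.65 and 6.73 in siNTC and 5.52 and 5.91 in siTET3 and 6.61 and 6.86 in siTET1 and 6.58 and 6.60 in siTET2 (-0.95 ± 0.11, adjusted p = 0.000119). SATB1, a chromatin organizer, read 7.59 and 7.33 in siNTC and 6.59 and 6.73 in siTET3 and 7.67 and 7.55 in siTET1 and 7.36 and 7.54 in siTET2 (-0.87 ± 0.089). In FREM2 and SATB1 the 2 siTET3 arrays were below both siNTC arrays. Lying outside all siTET1 and siTET2 arrays was a condition of the set these 2 genes came from. ECI2, an enzyme of unsaturated fatty acid breakdown, read 10.94 and 10.91 in siNTC and 10.03 and 10.00 in siTET3 and 10.77 and 10.73 in siTET1 and 10.71 and 10.69 in siTET2 (-0.71 ± 0.033). ANXA1, a phospholipid-binding protein, read 9.95 and 9.88 in siNTC and 10.29 and 10.37 in siTET3 and 9.39 and 9.56 in siTET1 and 9.69 and 9.58 in siTET2. Its change against siNTC was 0.42 in siTET3 and -0.44 and -0.28 in siTET1 and siTET2, all 3 called. The other members of the 2 sets of 10 that differed most included genes that moved in the other depletions as well. GLIPR1 was higher than their mean by 0.60, with siTET1 and siTET2 changes of 0.53 and 0.55. SCARNA7 (-1.07), SNORA60 (-0.96) and VIPR2 (-0.88) were lower than that mean, and their siTET1 and siTET2 changes against siNTC were 0.65 and 0.72, 1.01 and 1.22 and 1.42 and 1.48. SNRPG lay -0.87 from it with changes of 0.57 and 0.14, and MTND2P28, a nuclear copy of a mitochondrial gene, -0.85 with -0.33 and 0.47. SHISA3 was at -0.88, from changes of -2.07 and -2.61 in the others, and TET3 itself at -0.92.

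**Figure D5:**
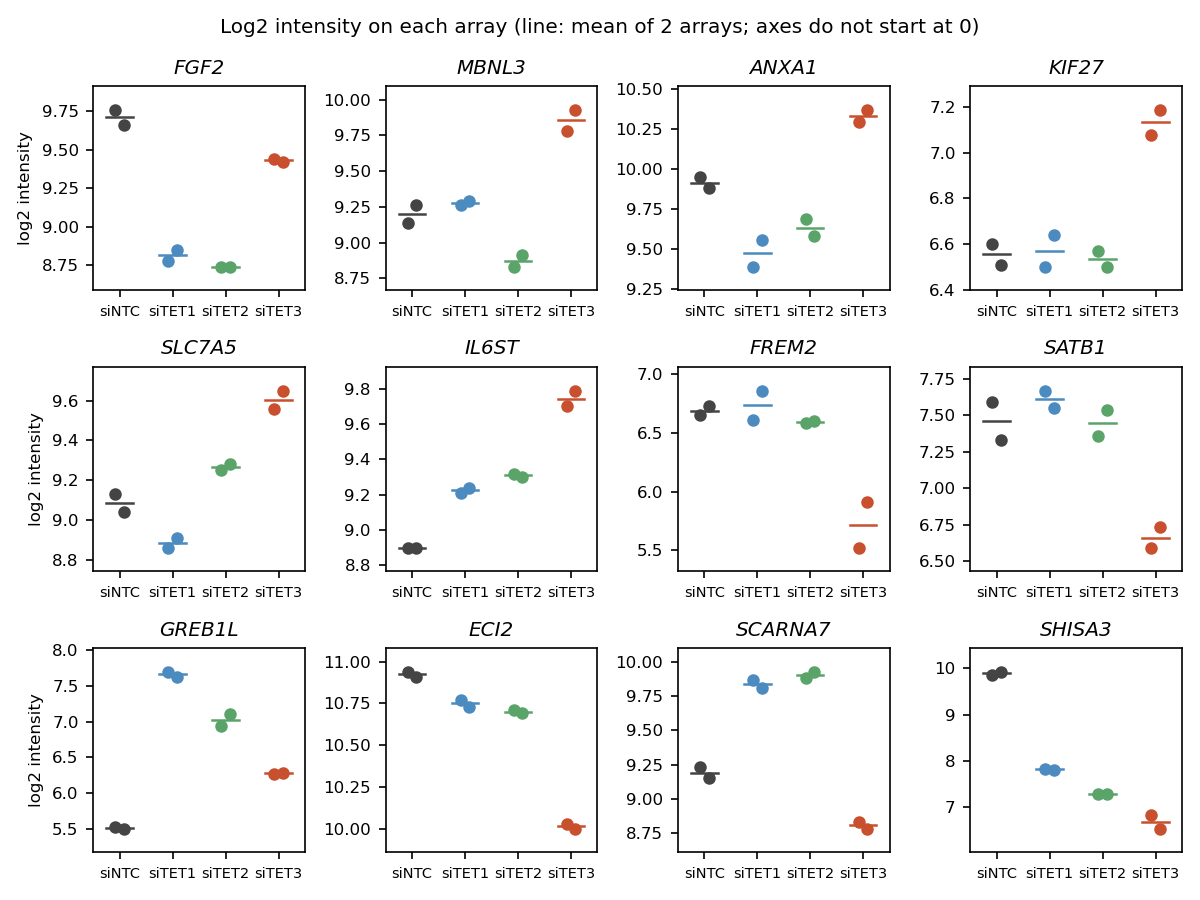
Log2 intensity of 12 genes on each of the 8 arrays, with 2 points and a line at their mean for siNTC, siTET1, siTET2 and siTET3 and a separate vertical axis for each gene that does not start at 0; the genes were chosen after their values were seen. FREM2, SATB1 and ECI2 are lowest and MBNL3, ANXA1, KIF27, SLC7A5 and IL6ST highest in siTET3, whereas FGF2 in siTET3 lies between siNTC and the other depletions.

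Several signalling lists were counted in this contrast too. Against the mean of the other depletions, 11 of the 29 insulin and IGF genes were lower in siTET3 and 0 higher, 10 of 70 WNT genes were lower and 1 higher, and 16 of 71 axon guidance genes were lower and 1 higher, beside 9.64% lower and 5% higher over all genes. The NODAL, TGF-beta and BMP genes counted 3 higher and 7 lower of 56 and the FGF and ERK genes 4 higher and 7 lower of 37. Without siTET3 replicate 1 the lower counts of these 5 lists fell to 5, 4, 7, 2 and 5. INSR changed by 0.19 and 0.09 in siTET1 and siTET2 and was -0.39 ± 0.067 in siTET3 from their mean (adjusted p = 0.00172), and IGF1R was -0.31. LTBP1 changed by 0.16 and 0.08 in the others and was -0.47 from their mean. In the guidance list EFNB1 (-0.38), NRP1 (-0.37) and ROBO1 (-0.30) had siTET1 and siTET2 changes of 0.10 and -0.08, 0.04 and 0.11 and 0.22 and 0.04. IL6ST, higher in all 3 depletions against siNTC with 0.32 and 0.41 in siTET1 and siTET2, was still 0.48 ± 0.043 above their mean in siTET3 (adjusted p = 1.89e-05).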

How the data were processed

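Total RNA of NCCIT cells was read on Affymetrix Human Gene 1.0 ST arrays, 2 for each of siTET1, siTET2, siTET3 and siNTC, and samples were grouped by their titles. The deposited values were log2 intensities normalized by the authors. Partek is named in the submitters' processing notes, while its version and the steps of background correction and summarization were not given in the sources used here. No raw scanner files were used. Of 33297 transcript clusters, 19460 (58.4%) had 1 gene symbol in GEO's platform annotation, 1754 several and 12083 none. Each gene took its single-symbol cluster with the highest mean over the 8 arrays (769 genes had several clusters), which gave 18417 genes. No genome was at hand; chromosomes, gene order, promoters and miRNA sequences came from RefSeq tables (GRCh38.p14), and names in the gene lists were matched through RefSeq synonyms.

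Genes were fitted over all 8 arrays by lmFit and eBayes (trend = TRUE) of limma 3.58.1, under R 4.3.3, with 4 residual and 8.55 prior degrees of freedom, two-sided, Benjamini-Hochberg over all genes, called at an adjusted p below 0.05. No covariate was used. The script was tested on simulated data. Tables and figures were made with Python 3.11.15, pandas 2.3.3, numpy 2.4.6, scipy 1.17.1 and matplotlib 3.10.9. Where all arrays of 1 group were below the background level, the fold is given as a bound against that level. Correlations over genes were 0.998 within either group and 0.989 to 0.991 between them. Array medians ran from 6.22 to 6.27 over all transcript clusters and from 6.65 to 6.76 over the genes used. The lowest gene median, 6.65, was that of siTET3 replicate 1, which also had the narrowest spread. Its lower and upper quartiles were 4.98 and 8.85, against 4.90 and 8.90 in siTET3 replicate 2. In siNTC they were 4.93 and 8.99 in replicate 1 and 4.90 and 8.95 in replicate 2.

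The genes, lists and tests were chosen with earlier results of these data known. Of 75 lists (3118 genes) examined, the text describes those chosen with their values seen, and no list was tested as a set. Genes named in the text were the TET genes and identity markers, the genes ranked 11 to 30 in each direction among those whose groups did not overlap, list members with the largest changes or defining roles, miRNA genes past 1.5-fold and the 10 genes in each direction that differed most from the other depletions. Those 10 were taken among genes called in that contrast whose siTET3 arrays lay outside all siTET1 and siTET2 arrays. The neighbour median, gene classes, printed promoters and genes of the plot of 12 genes by array were also chosen after values were seen. Alternatives were the 4 arrays alone, no trend, quantile normalization, means of clusters, genes above background only, no chromosome 15 genes, a replicate block, a 1.5-fold limit and each array left out.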

Additional observations from a re-analysis of the deposited data

Results flagged for a closer look

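A set of 15 genes was picked because siTET3 was called one way against siNTC while both other depletions moved the opposite way. At least 1 of the other depletions had to pass the test. The pick also required a difference from the mean of siTET1 and siTET2, which leaves siNTC out (limma, adjusted p below 0.05, at least 1.5-fold). It further required siTET3 arrays that lay outside all siTET1 and siTET2 arrays. The tested difference and the non-overlap were conditions of the pick and give no separate support. Without the fold limit, which was set after the values were seen, there were 76 such genes. The differences were positive, siTET3 higher, for TET1 (0.91), which siTET1 targets, and ANXA1 (0.78). They were negative for SCARNA7 (-1.07), SNRPG (-0.87), MTX2 (-0.75), DDT (-0.71), the histone genes H3C12 (-0.71) and H4C5 (-0.70), SYT6 (-0.67), ABHD4 (-0.61), FIGNL2 (-0.61), ANTXR1 (-0.60), GUK1 (-0.59), EPS8 (-0.59) and USP27X (-0.59). SNRPG, a core protein of the spliceosome, changed by -0.51 in siTET3 and by 0.57 and 0.14 in siTET1 and siTET2, and it has more than 1 cluster of probes with unlike values.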

How the results depend on the processing

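Against siNTC the number of genes called was 6646. It was 5474 with the 4 arrays alone, 6034 without the intensity trend, 6893 after quantile normalization and 5558 to 6747 with 1 array left out, and 1089 genes also passed 1.5-fold. Against the mean of siTET1 and siTET2 the count of 2695 was less steady, 1504 without the trend, 1471 to 3341 with 1 array left out and 61 past 1.5-fold. The 4 arrays alone cannot give this contrast. Among list genes 1392 were called, 275 past 1.5-fold and 1182 to 1385 with 1 array left out. TET3 was lower by -0.85 to -1.30 in every alternative run and passed the test in each. A replicate block gave 6713, 2810 and 1409 calls and TET3 at -1.08 (adjusted p = 8.95e-05). Of 6 pairs of groups, siTET1 and siTET3 had same-numbered arrays that deviated together (correlation 0.24), while the other 5 correlations ran from -0.04 to 0.03, so the numbers were not taken to pair the samples. Leaving out genes in shifted neighbourhoods, an alternative chosen after seeing the data, gave 5554, 2354 and 1166 calls and a split of 2329 higher and 3225 lower against siNTC. Without chromosome 15 the split was 2501 and 3823. Of 1447 named or listed genes called and followed, 978 kept their call in every alternative. Values that reversed did so under the mean of a gene's clusters, without passing the test: SNRPG at 0.031 (adjusted p = 0.736), ATF4 at 0.032, SLC1A5 at 0.047 and ZNF75A at 0.00067. Of 1198 list medians 61 changed sign, the largest of them 0.22 in size. Signal over background limits what can be said of genes near or below that level.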

Other observations

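Genes of autophagy, which digests cell contents in lysosomes, counted 6 higher and 14 lower of 36 in siTET3 against siNTC, beside 13.8% and 22.3% of all genes. Among the lower calls, the membrane tag GABARAPL1 read 11.97 and 11.98 in siNTC and 11.37 and 11.30 in siTET3 (-0.63 ± 0.039, adjusted p = 8.16e-08). GABARAPL2 (-0.47), ATG12 (-0.65), ATG13 (-0.52) and the starting kinase ULK1 (-0.42) were lower too. SQSTM1, the cargo receptor p62, went the other way at 9.88 and 9.86 in siNTC and 10.52 and 10.57 in siTET3 (0.68 ± 0.041). Its changes in siTET1 and siTET2 were 0.26 and 0.26, and siTET3 lay 0.42 ± 0.035 above their mean (adjusted p = 1.23e-05), in the contrast that leaves siNTC out. Against that mean 4 of the 36 genes were higher and 13 lower, or 4 lower without siTET1 replicate 2 or siTET2 replicate 2, 5 without siTET3 replicate 1, 7 without siTET1 replicate 1 and 8 without siTET2 replicate 1.

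Neuronal growth and granule genes were split, 9 higher and 9 lower of 30, beside 13.8% and 22.3% of all genes. GAP43, a protein of growth cones, read 8.85 and 8.88 in siNTC and 7.56 and 7.48 in siTET3 (-1.34 ± 0.083) and MAP2, a dendritic microtubule protein, read 8.90 and 8.92 in siNTC and 7.65 and 7.82 in siTET3 (-1.18 ± 0.068, neighbours -0.44). DPYSL5, which acts in neurite growth, read 5.90 and 6.43 in siNTC and 7.13 and 7.14 in siTET3 (0.97 ± 0.13). MAP2 changed by -0.47 and -0.84 in siTET1 and siTET2, and siTET3 was -0.52 ± 0.059 from their mean (adjusted p = 0.000105). Of 32 imprinted genes, expressed from only the maternal or the paternal copy, 5 were higher (3 without siNTC replicate 1) and 9 lower, or 3 and 6 outside shifted neighbourhoods, shares near those of all genes. PEG10, a retrotransposon-derived gene of the placenta, read 12.01 and 11.95 in siNTC and 11.10 and 11.30 in siTET3 (-0.78 ± 0.055) and lay -0.29 from the mean of the others (adjusted p = 0.00145).

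Genes above background were also sorted by the CpG content of the 300-base promoter, as observed over expected CpG. Lower calls made up 21.1% of 684 genes with a ratio below 0.25, 27.2% of 831 between 0.25 and 0.5, and 33.2%, 32.1% and 31.8% in the 3 classes above that, while higher calls ran from 15.2% to 20% over the 5 classes without an order. No test was run on these shares, and expression level, which differs between such classes, was not held fixed.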
